A study of Mus musculus with 2 samples.

Results

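The clustered histone genes are the protein-coding genes that lie side by side in the mouse Hist1, Hist2, Hist3 and Hist4 loci. They were taken by name: every row of the 2 count tables whose Ensembl identifier maps in GENCODE M21 to a protein-coding symbol that begins with Hist1h, Hist2h, Hist3h or Hist4h. This gave 67 genes of the 53801 rows, among 21890 protein-coding genes. By class, 6 encode the linker histone H1, 18 encode H2A, 18 encode H2B, 12 encode H3 and 13 encode H4.

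RNA-seq was done on microglia sorted from the left hemisphere of Cx3cr1(CreER/wt) mice 3 days after sham surgery, and each of the 2 libraries came from the brain of 1 mouse. One Cx3cr1 allele in these mice carries a tamoxifen-inducible Cre, and tamoxifen was given at 75 mg/kg per day for 4 days, with surgery 14 days after the first dose per the labels. The labels describe males of 8 to 10 weeks, whereas the study's methods name both sexes and an older range. The sort gate was CD11c-, Ly6G-, CD11b+ and CD45low. Sham surgery is named in the sample titles, whereas the treatment field says none. The stroke arm of the experiment was not analysed here. With 1 group there is no comparison of conditions. The values describe 2 libraries, every interval below is a 95% interval for counting error only, and no p-value is given.

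Clustered histone genes are the replication-dependent ones: in dividing cells they are transcribed in S phase, when new chromatin needs core histones (H2A, H2B, H3, H4) and linker histone (H1). Their messages are known for ending just past a short stem-loop, which the stem-loop binding protein SLBP holds, and not in a poly(A) tail. The same genes can also give a longer message that runs past the stem-loop and is polyadenylated, a form described in cells that have stopped dividing. The cDNA of these libraries was primed on poly(A), so the counts reach histone messages that carry a tail, and the abundance of messages that end at the stem-loop was not measured.

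The stem-loop itself is shown for 6 genes, because it is the known hallmark of these genes and the annotated transcripts differ in how far they run past it. Each line gives 26 bases of the annotated transcript on the transcribed strand, with the 16-base hairpin in capitals: 6 stem bases, a loop of 4 and the 6 paired bases. The first 4 genes were counted and the last 2 were not.
Hist1h1c: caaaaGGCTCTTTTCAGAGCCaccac
Hist1h4d: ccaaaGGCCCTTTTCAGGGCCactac
Hist1h3e: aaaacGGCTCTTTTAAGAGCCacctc
Hist1h4i: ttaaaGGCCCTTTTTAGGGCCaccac
Hist1h4h: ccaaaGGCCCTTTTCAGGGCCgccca
Hist1h2bf: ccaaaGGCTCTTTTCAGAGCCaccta
In GRCm38 these runs lie in exons, after the coding sequence, at chr13:23739507-23739532 (plus strand), chr13:23581945-23581970 (plus), chr13:23561898-23561923 (minus), chr13:22040961-22040986 (minus), chr13:23531453-23531478 (plus) and chr13:23573760-23573785 (minus). In Hist1h1c the annotated transcript runs another 840 bases past the hairpin, in Hist1h4d 770, in Hist1h3e 369 and in Hist1h4i 330. In Hist1h4h it stops 46 bases and in Hist1h2bf 29 bases past it.

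The hairpin, written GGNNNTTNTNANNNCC with paired stem bases, was found within 150 bases after the stop codon in 46 of the 67 genes (68.7%) and in 52 of all 21890 protein-coding genes (0.238%). It began 22 to 59 bases after the stop codon, with a median of 32. The 46 hairpins were 8 different sequences. The commonest, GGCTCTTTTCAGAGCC, stood in 26 genes of the H1, H2A, H2B and H3 classes, and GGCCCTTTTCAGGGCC stood in 7 genes, all of them H4. Of the 21 genes without a hairpin, 15 have fewer than 16 annotated bases after the stop codon, so that none could be found. Among the others, the annotated transcripts of Hist1h1a and Hist2h3b end in the first letters of the commonest hairpin, so a full one could not be found there either.

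Of the 67 genes, 19 had at least 10 counts in both libraries (28.4%) and are called counted here. The same rule held for 52.5% of all protein-coding genes and for 16.4% of the 1322 protein-coding genes with 1 exon, the structure of 62 of the 67 histone genes. Among those 62 genes 17 were counted, and of the 5 with a spliced annotated transcript 2 were, Hist1h2bc and Hist1h2be. By class, 3 of 6 H1 genes, 3 of 18 H2A genes, 5 of 18 H2B genes, 3 of 12 H3 genes and 5 of 13 H4 genes were counted. At the edge of the rule, Hist3h2ba had 27 and 45 counts and Hist1h3f 14 and 16 just inside it, while Hist1h2ao (9 and 21), Hist1h3a (14 and 9) and Hist1h2bj (8 and 16) fell just outside. No count was recorded in either library for 15 genes, where 0 counts allow up to 0.128 CPM in library 1 and 0.0729 CPM in library 2.

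All 67 genes together held 2543 counts in library 1 and 6736 in library 2, or 109 and 164 counts per 1000000 counts on genes (CPM; 136 ± 38.9, SD, n = 2). Most of this came from few genes. The 5 members with the highest mean CPM over both libraries, Hist1h1c, Hist1h2bc, Hist3h2a, Hist1h4d and Hist1h2bg, took 52.1% of the histone counts in library 1 and 73.3% in library 2. They were the 5 highest in library 2, while in library 1 Hist1h2bg (3.72 CPM) lay below 7 members that are not among the 5, Hist2h4 (5.69 CPM) the highest of them. Per kb of exon, where genes can be compared with each other, Hist1h1c (23.4 CPM per kb, mean of both libraries) and Hist1h2bc (22.7) were the highest, followed by Hist1h4d (8.14), Hist1h2bg (7.55), Hist3h2a (5.46) and Hist1h3e (5.22). The order was not the same in each library. In library 1 Hist1h2bc (12.9 CPM per kb) stood above Hist1h1c (11.6), and Hist1h3e (6.60) and Hist1h4c (6.21) above Hist1h2bg (6.02). In library 2 Hist1h1c (35.1) stood above Hist1h2bc (32.6), and Hist1h2bg (9.09) above Hist1h4d (7.22).

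**Figure D1:**
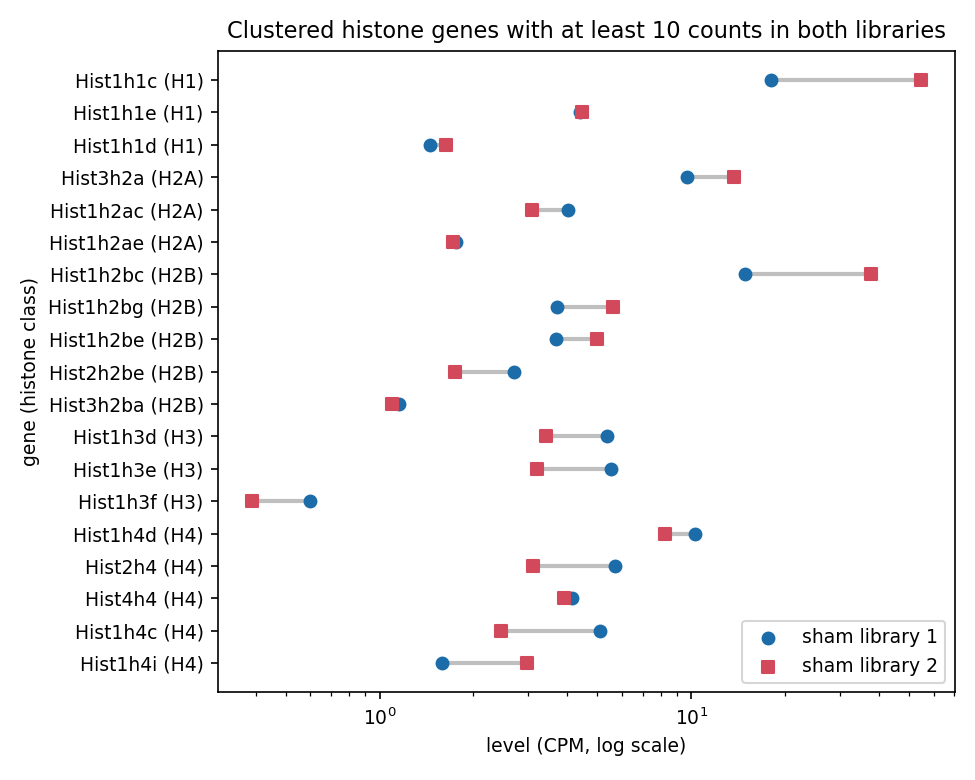
Level of the 19 counted genes (rows, with the histone class) in CPM on a log axis, with circles for library 1, squares for library 2 and a grey line between them. Hist1h1c and Hist1h2bc stand furthest right in both libraries and lie furthest apart between them in CPM.

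H1 histones bind the linker DNA between nucleosomes and compact chromatin. Hist1h1c, at chr13:23738808-23740367, was the most abundant clustered histone gene, with 423 counts (18.1 CPM) in library 1 and 2254 (54.8 CPM) in library 2. Hist1h1e was at 4.41 and 4.45 CPM and Hist1h1d at 1.45 and 1.63 CPM, close to each other between the libraries. The other 3 H1 genes stayed under the rule: Hist1h1a had 6 and 4 counts, Hist1h1b 1 and 9, and Hist1h1t, the testis linker histone, 1 and 0. Hist1h1c thus took 423 of 568 H1 counts in library 1 and 2254 of 2517 in library 2. These last 3 genes, like all uncounted genes named below, were chosen after their values were seen.

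H2A and H2B pair into the dimers that close the nucleosome. Among H2A genes Hist3h2a, on chromosome 11, led with 9.71 and 13.7 CPM, followed by Hist1h2ac with 4.02 and 3.09 CPM and Hist1h2ae with 1.75 and 1.73 CPM. The other 15 H2A genes held 24 counts in library 1 and 68 in library 2 together. Each of the 18 H2A genes is partly or wholly overlapped by another annotated gene, over 33.0% of its exons for Hist3h2a, 19.6% for Hist1h2ae and 9.91% for Hist1h2ac. How the authors' counting divided reads there is not given in the sources used here, so H2A counts are less certain than those of other classes.

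Among H2B genes Hist1h2bc had 348 counts (14.9 CPM) in library 1 and 1551 (37.7 CPM) in library 2, far above the rest. Hist1h2bg followed with 3.72 and 5.61 CPM, Hist1h2be with 3.68 and 4.98 CPM, Hist2h2be with 2.69 and 1.75 CPM and Hist3h2ba with 1.15 and 1.09 CPM. Hist1h2be overlaps the end of Hist1h1e on the same strand: 11.2% of its exons, and 25.7% of those of Hist1h1e, are shared with other genes. Hist1h2bc and Hist2h2be were the 2 counted genes in whose annotated transcripts no hairpin was found. The testis pair Hist1h2ba and Hist1h2aa had no count in either library.

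H3 and H4 form the tetramer at the core of the nucleosome. Hist1h3d was at 5.39 and 3.43 CPM and Hist1h3e at 5.52 and 3.21 CPM, both lower in library 2, and Hist1h3f was at 0.599 and 0.389 CPM. Among H4 genes Hist1h4d led with 10.3 and 8.22 CPM. Hist2h4 was at 5.69 and 3.11 CPM, Hist1h4c at 5.09 and 2.45 CPM, Hist4h4 at 4.15 and 3.91 CPM and Hist1h4i at 1.58 and 2.97 CPM. By CPM, Hist1h4i was the one counted H4 gene that was higher in library 2, and with TMM scaling Hist4h4 was higher too (log2 ratio 0.15).

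The annotated transcripts separated the counted genes from most of the others. All 19 counted genes have 199 to 4931 annotated bases after the stop codon, with a median of 822. The 39 genes with fewer than 150 such bases had no counted member, and together held 94 counts in library 1 and 202 in library 2 (4.02 and 4.91 CPM). The 28 genes with 150 or more held 96.3% (exact interval 95.5 to 97.0%) and 97.0% (96.6 to 97.4%) of the histone counts. This division was chosen after the counts were seen. A read past an annotated end is not counted for the gene, so counts and models are not independent.

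**Figure D2:**
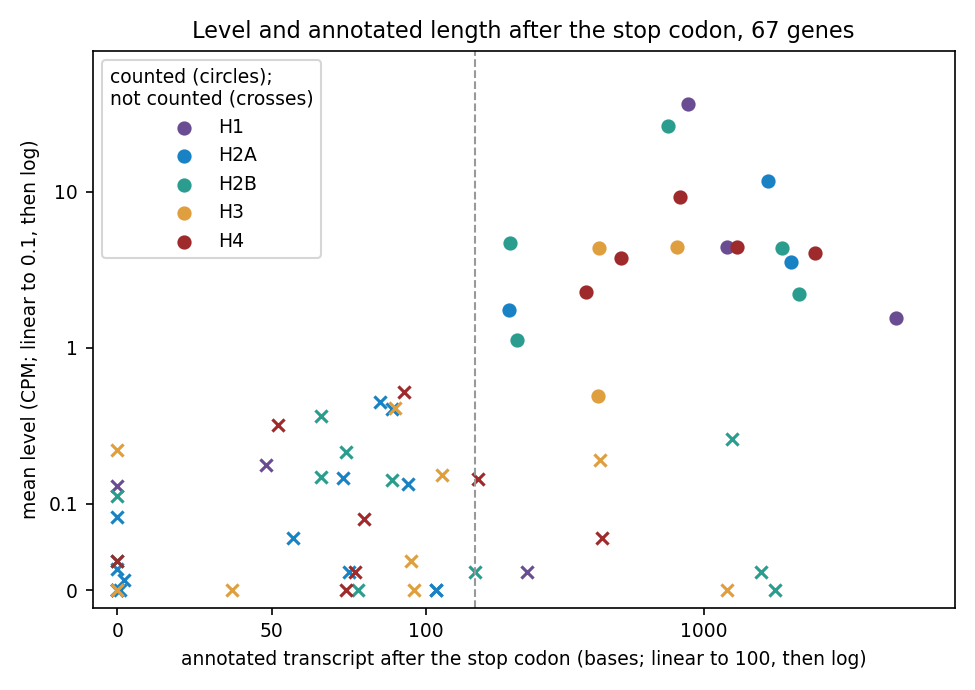
Mean level of each of the 67 genes (vertical axis, CPM) against the annotated bases after its stop codon (horizontal axis), with colour for the class, circles for counted genes and crosses for the others. The dashed line stands at 150 bases, and every circle lies to its right, from 199 to 4931 bases.

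Sorted by where the model ends, 26 genes have a transcript that runs at least 50 bases past the hairpin, and 17 of them were counted. In 20 genes the transcript ends within 50 bases of the hairpin, and none was counted. The most abundant of these was Hist1h4h, with 8 and 29 counts. The 15 genes with almost no annotated sequence after the stop codon held 9 and 38 counts together. The other 6 models without a hairpin included Hist1h2bc and Hist2h2be. They also included Hist1h1a and Hist2h3b, with only 48 and 37 bases after the stop codon, whose annotated ends stop within the letters of the hairpin. A long model alone did not go with counts: 9 of the 28 genes were not counted, among them Hist1h2br with 1803 bases and 0 counts, Hist1h2bq with 1608 bases and 1 and 0 counts, and Hist1h2bh with 1258 bases and 7 and 9 counts.

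The ends of 3 counted transcripts are shown because a poly(A) message is cleaved shortly after a poly(A) signal. Each line is the last 30 bases of the longest annotated transcript, with the AATAAA or ATTAAA signal in capitals.
Hist1h1c: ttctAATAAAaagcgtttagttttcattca
Hist1h4i: tctgtttacATTAAAagtattctatgctaa
Hist2h2be: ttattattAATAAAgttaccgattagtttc
They lie at chr13:23740338-23740367 (plus strand), chr13:22040636-22040665 (minus) and chr3:96223709-96223738 (plus) in GRCm38. Either signal was found in the last 50 bases for 9 of the 19 counted genes, 7 of the 48 others and 68.8% of all protein-coding genes. The absence of the letters says only that they are not in that window.

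Clustered histone genes are close copies of each other, and reads that fit several copies may be lost in counting. The share of 75-base windows of each gene that match no transcript of another gene had a median of 83.1% in the 19 counted genes and 36.0% in the 48 others. A window shared with a gene that overlaps the same place also counts as a match, so this share mixes copies with overlap. The lowest share was 40.6% in a counted gene, Hist1h3e, and 0% in 5 uncounted genes. Those 5, Hist2h2aa1, Hist2h2aa2, Hist2h3c1, Hist2h3b and Hist2h2bb, are wholly covered by other annotated genes and had no count in either library. Low counts of copied genes therefore cannot be told apart from reads that were not assigned. Hist1h1a (6 and 4 counts) and Hist1h1b (1 and 9) were also uncounted, although 100% of their windows were unlike any other gene.

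Because different genes encode the same protein, the counts can also be read by product, from the translated annotation. All 13 H4 genes encode 1 identical protein of 103 residues, with 654 and 900 counts, of which the 7 genes with 150 or more bases after the stop codon held 632 and 858. Of the H3 genes, 7 encode 1 protein, with 280 and 298 counts and 3 counted genes (Hist1h3d, Hist1h3e, Hist1h3f), and 4 others (Hist1h3a, Hist1h3g, Hist1h3h, Hist1h3i) encode another, with 18 and 23 counts and no counted gene. Among H2B genes Hist1h2bc, Hist1h2be and Hist1h2bg encode 1 protein, all 3 were counted, and they held 521 and 1987 counts. The 4 genes Hist1h2bf, Hist1h2bj, Hist1h2bl and Hist1h2bn encode another H2B with 13 and 37 counts. Among H2A genes 9 encode 1 protein, 2 of which were counted, with 155 and 259 counts in all.

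The genes lie in 4 places. Hist1 holds 54 genes at chr13:21715763-23934851, Hist2 10 genes at chr3:96219865-96270132, Hist3 2 genes at chr11:58948920-58956830 and Hist4 a single gene at chr6:136801553-136804415. The summed level was 85.0 and 140 CPM for Hist1, 8.77 and 5.13 CPM for Hist2, 10.9 and 14.8 CPM for Hist3 and 4.15 and 3.91 CPM for Hist4. Within Hist1 the widest gap, of 1487 kb, divides 23 genes from 31. The 23 on the lower side held 3.38 and 5.57 CPM and 1 counted gene, Hist1h4i. The 31 on the upper side held 81.6 and 134 CPM and 13 counted genes. The upper genes also have longer models, with a median of 154 bases after the stop codon against 57, and more windows unlike other genes, with a median of 65.6% against 22.4%.

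**Figure D3:**
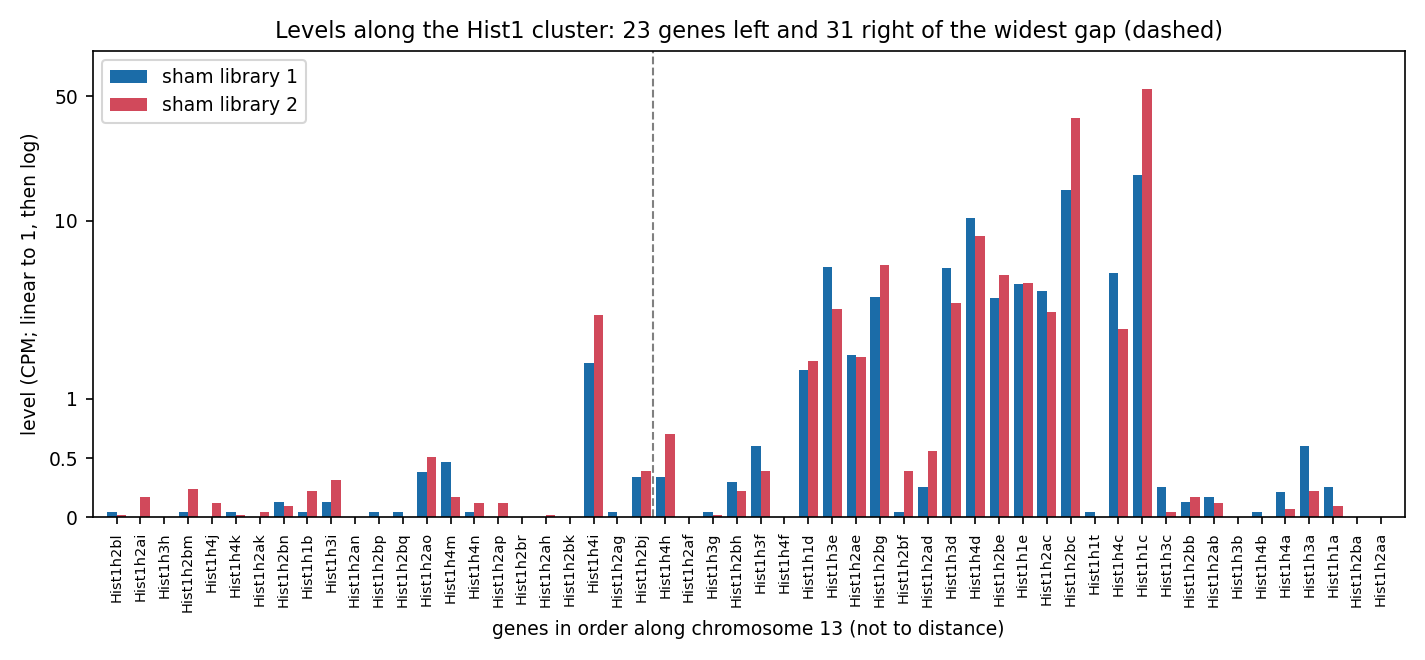
Levels in CPM of the 54 Hist1 genes in their order along chromosome 13, with bars for library 1 and library 2 and a dashed line at the widest gap. Hist1h4i is the tallest of the 23 genes on the left, and Hist1h1c and Hist1h2bc are the tallest of the 31 on the right.

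H2A and H2B genes often share a divergent promoter. The annotation holds 12 such pairs, with starts 175 to 305 bases apart (median 259). Both genes were counted in 2 pairs, Hist1h2ae with Hist1h2bg and Hist1h2ac with Hist1h2bc, 1 gene in the pair of Hist2h2ac (4 and 4 counts) with Hist2h2be, and neither in the other 9. In both pairs that were counted the H2B gene was the higher: 3.72 and 5.61 CPM for Hist1h2bg against 1.75 and 1.73 CPM for Hist1h2ae, and 14.9 and 37.7 CPM for Hist1h2bc against 4.02 and 3.09 CPM for Hist1h2ac. The partners differ in transcript length, so these CPM values compare counts and not molecules.

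The upstream sequences of Hist1h1c and Hist1h2bg are shown, the first for the most abundant gene and the second for a divergent pair, whose other start, that of Hist1h2ae, lies inside the run. Each is the 250 bases before the RefSeq start (GRCm38.p6, plus strand), at chr13:23738557-23738806 and chr13:23571150-23571399. Capitals mark the CCAAT box, the TATA box (searched as TATAAA), the octamer (ATTTGCAT) and the H1 box (searched as AAACACA), on either strand.
Hist1h1c: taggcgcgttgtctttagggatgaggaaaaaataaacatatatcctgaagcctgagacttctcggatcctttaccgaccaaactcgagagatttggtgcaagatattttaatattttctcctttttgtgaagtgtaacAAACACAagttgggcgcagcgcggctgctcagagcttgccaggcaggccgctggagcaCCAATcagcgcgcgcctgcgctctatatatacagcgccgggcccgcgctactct
Hist1h2bg: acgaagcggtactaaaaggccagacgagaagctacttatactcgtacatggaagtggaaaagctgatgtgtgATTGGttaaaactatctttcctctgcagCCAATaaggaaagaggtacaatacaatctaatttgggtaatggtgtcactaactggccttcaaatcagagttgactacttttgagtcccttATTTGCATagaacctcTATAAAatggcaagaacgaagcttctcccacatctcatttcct
RefSeq promoters of 300 bases (250 before and 50 after the start) were matched for 62 of the 67 genes. CCAAT, on either strand, was in the promoters of all 6 H1, 18 H2A, 16 H2B and 10 H3 genes matched but of 3 of the 12 H4 genes, and in 37.4% of all 32851 promoters. The octamer was in 7 H2A and 7 H2B genes and in no gene of another class (1.74% of all promoters), and the H1 box in 5 of 6 H1, 2 H2A and 2 H2B genes (7.18% of all). TATAAA was in 13.6% of all promoters. CCAAT stood in 13 of 15 counted and 40 of 47 uncounted genes, and TATAAA in 9 of 15 and 26 of 47. The octamer stood in 5 of 15 and 9 of 47, and the H1 box in 3 of 15 and 6 of 47.

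The 2 libraries differed in what they held. Library 1 had 23381026 counts on genes and library 2 had 41142609, so counting error is smaller in library 2. The 10 microglia markers summed to 39111 and 44410 CPM, and all were counted in both. Of these 10, 0 were over 2-fold higher in library 2 (5.74% of all counted genes). Sall1, at 337 and 146 CPM, was the 1 over 2-fold lower (25.9% of all). Others went in both directions, with P2ry12 at 4575 and 7450 CPM and Cx3cr1 at 4860 and 3566 CPM. Although the gate removed Ly6G+ cells, 9 immature neutrophil markers (Ngp and others) summed to 1640 and 31087 CPM. The 8 mature neutrophil markers summed to 3496 and 31558 CPM. Of these 8, 7 were over 2-fold higher in library 2 (5.74% of all counted genes), while Csf3r was lower, at 517 and 354 CPM. The 4 basophil markers summed to 0.0855 and 162 CPM, with 3 of those 4 at 0 in library 1. The 6 erythroid markers summed to 5 and 616 counts, with 4 at 0 in library 1, and the 6 B lineage markers to 52.6 and 58.1 CPM. Nearly all of the B lineage sum was Cd79b (1219 and 2280 counts), and without it the log2 ratio of the other 5 was 2.39, with Cd79a at 7 and 56 counts and Vpreb1 at 1 and 27. With 1 library on each side, these marker differences cannot be told apart from any difference between the libraries given next. Their part in it was not tested. In sorted bulk RNA, fewer cells of a type and less RNA per cell cannot be told apart.

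The summed level of the clustered histone genes was higher in library 2, with a log2 ratio of 0.59 (0.52 to 0.66), but the classes went in both directions. H1 was at 24.3 and 61.2 CPM (42.7 ± 26.1, SD, n = 2), a log2 ratio of 1.33 (1.20 to 1.47) that was 0.0437 without Hist1h1c. H2B was at 27.2 and 52.7 CPM (40.0 ± 18.0), a log2 ratio of 0.95 (0.82 to 1.08) that was 0.28 without Hist1h2bc. H2A was at 16.5 and 20.2 CPM (18.4 ± 2.61), a log2 ratio of 0.29 (0.12 to 0.47) that was -0.0729 without Hist3h2a. H3 was lower in library 2, at 12.7 and 7.80 CPM (10.3 ± 3.50), a log2 ratio of -0.71 (-0.94 to -0.48), and so was H4, at 28.0 and 21.9 CPM (24.9 ± 4.31), a log2 ratio of -0.35 (-0.50 to -0.21). Of the counts on clustered histones, H3 and H4 were 11.7% and 25.7% in library 1 but 4.77% and 13.4% in library 2.

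**Figure D4:**
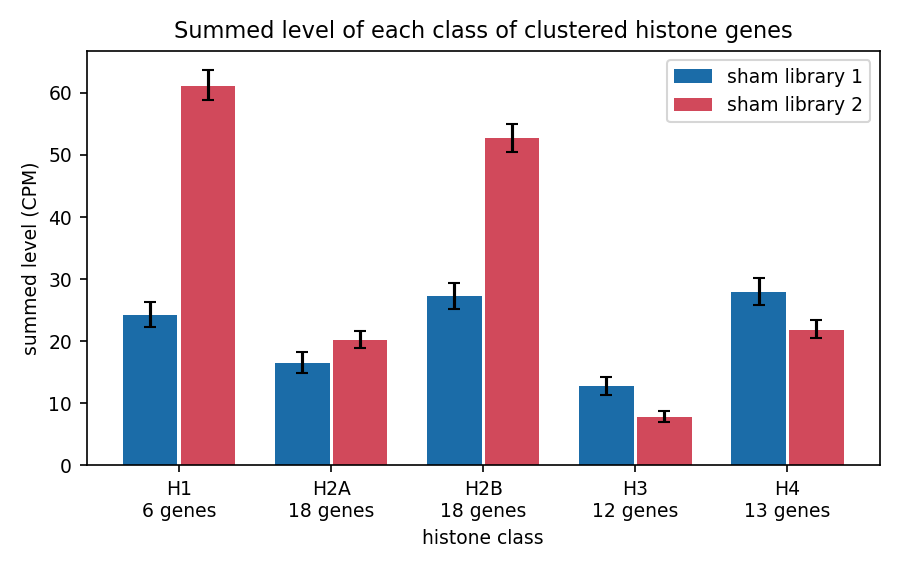
Summed level in CPM of each class of clustered histone genes in library 1 and library 2, with exact Poisson 95% intervals as error bars (counting error only). The bars of H1 and H2B are higher in library 2, at 61.2 and 52.7 CPM, and those of H3 and H4 lower, at 7.80 and 21.9 CPM.

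By CPM, the higher total in library 2 was held by Hist1h1c and Hist1h2bc. Without them, a choice made after the counts were seen, the other 65 genes summed to 75.8 and 71.2 CPM. Their log2 ratio was -0.09 (-0.17 to -0.003) by CPM but 0.14 (0.06 to 0.23) with TMM scaling, so its direction depends on the scaling. Hist1h1c was 3.03-fold and Hist1h2bc 2.53-fold higher in library 2, with log2 ratios of 1.60 (1.45 to 1.75) and 1.34 (1.17 to 1.51). They were the 2 of 19 counted genes over 2-fold higher, against 5.74% of the 13445 genes counted in both libraries. Hist1h4c was the 1 of 19 over 2-fold lower, with a log2 ratio of -1.05 (-1.45 to -0.66), against 25.9% of all counted genes. With TMM scaling no member was over 2-fold lower and Hist1h4i was also over 2-fold higher (log2 ratio 1.14). The 5.74% and 25.9% hold for CPM only, and the shares over all genes with TMM scaling are not given here. The next largest ratios were those of Hist1h4i (0.91), Hist1h2bg (0.59) and Hist3h2a (0.50) above 0, and of Hist2h4 (-0.87), Hist1h3e (-0.78) and Hist1h3d (-0.65) below it. The median log2 ratio was -0.08 over the 19 counted histone genes (0.15 with TMM) and -0.26 over all 13445 counted genes. TMM scaling, which adds 0.23 to every log2 ratio, gave -0.48 (-0.71 to -0.25) for H3 and -0.12 (-0.27 to 0.02) for H4, whose interval then holds 0.

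**Figure D5:**
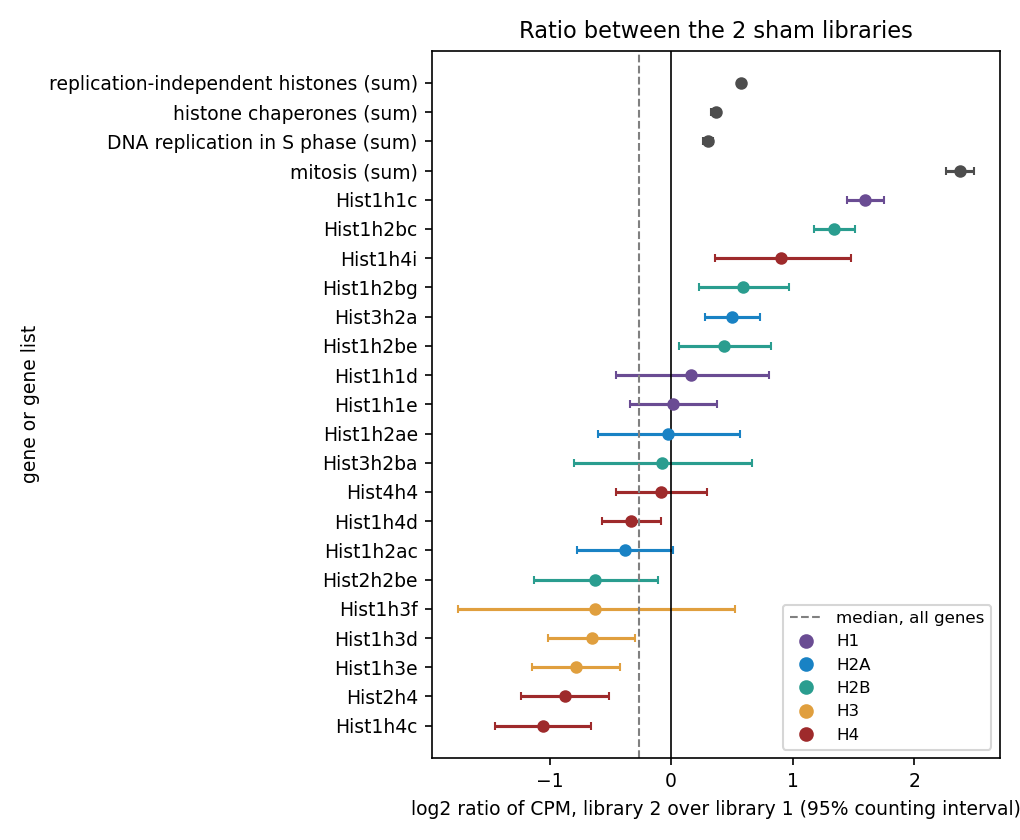
Log2 ratio of CPM, library 2 over library 1, of the 19 counted genes (coloured by class) and of 4 gene list sums (grey), with 95% counting intervals; the dashed line is the median of all counted genes, -0.26. Hist1h1c and Hist1h2bc lie at 1.60 and 1.34, and the sum of the mitosis genes lies furthest right, at 2.38.

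Histone genes outside the clusters, most of which encode variants made through the cell cycle from polyadenylated messages, were more abundant in counts. The 11 genes of this list, named replication-independent although Cenpa and H2afx in it are known to vary with the cell cycle, summed to 1589 and 2370 CPM, against 109 and 164 CPM for all 67 clustered genes, and 10 of the 11 were counted. H3f3b was at 1188 and 1656 CPM and H3f3a, which encodes the same H3.3 variant, at 51.4 and 124 CPM. H2afz, encoding H2A.Z, was at 114 and 288 CPM and H2afy, encoding macroH2A, at 107 and 102 CPM. Of the 10 counted genes 4 were over 2-fold higher in library 2 (5.74% of all counted genes) and none over 2-fold lower (25.9% of all).

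Genes of the cell cycle give the setting in which clustered histones are used. All 10 mitosis genes were over 2-fold higher in library 2, against 5.74% of all counted genes, and their sum was 29.6 and 154 CPM. Cdk1, the kinase that starts mitosis, was at 6.29 and 25.2 CPM, and Ccnb2, a cyclin partner of it, at 2.48 and 25.2 CPM. The 17 genes of DNA replication summed to 298 and 368 CPM, with 4 over 2-fold higher (5.74% of all counted genes) and 1 lower (25.9% of all) among the 16 counted. Pcna, the sliding clamp of the polymerases, was at 46.1 and 71.0 CPM and Mcm3, part of the replicative helicase, at 83.4 and 71.9 CPM. The 39 histone genes with fewer than 150 bases after the stop codon had a log2 ratio of 0.29 (-0.07 to 0.66). It was 0.30 (0.26 to 0.35) for the sum of the DNA replication genes, or 0.46 without Mcm3. For that of the mitosis genes it was 2.38 (2.26 to 2.49). TMM scaling adds 0.23 to each of these ratios, and gave 0.52 (0.16 to 0.89) for the 39 histone genes. The cut at 150 bases was chosen after the counts were seen, and a link between these ratios was not tested.

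The factors that make and carry histones were measured in both libraries. The 11 genes of histone transcription and 3′ end formation summed to 483 and 493 CPM, with none over 2-fold higher (5.74% of all counted genes) and 4 over 2-fold lower (25.9% of all) among the 10 counted. Slbp, which encodes the protein that binds the stem-loop, was at 59.7 and 114 CPM, and Cpsf3, the endonuclease that cleaves the message, at 170 and 177 CPM. Lsm10, a subunit of the U7 particle that guides this cleavage, was at 56.8 and 61.2 CPM. The 10 histone chaperone genes summed to 379 and 489 CPM, all were counted, and 2 were over 2-fold higher in library 2 (5.74% of all counted genes). Rbbp4 was at 153 and 172 CPM and Hat1, which acetylates new H4, at 26.9 and 53.5 CPM.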

How the data were processed

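Per the labels and the study's methods, cDNA was made from sorted cells with SMART-Seq HT chemistry, primed on poly(A), and sequenced as paired reads of 75 bases. Read quality was checked by the authors in FastQC. Alignment to GRCm38 used HISAT2, and HTSeq gave the deposited raw counts for each Ensembl identifier. The authors normalized counts with DESeq2 in their own analysis, and the deposited values are those before that step. Versions, annotation release and strand setting are not given in the sources used here. Identifiers were matched to GENCODE M21 for 53620 of 53801 rows, and all 67 members had the same coordinates there.

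CPM was the count divided by the total of its library (23381026 and 41142609), times 1000000. A gene was called counted at 10 or more counts in both libraries. Intervals were exact (Poisson for levels, Clopper-Pearson for shares, conditional binomial for ratios) at 95%. With 1 group of 2 libraries no test was made. Named were members with a mean of at least 1 CPM, the 3 highest of each class, the 5 largest ratios each way and up to 4 genes of each other list. Members and lists were chosen with earlier results of these data known.

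No genome sequence was used here, so stem-loops were searched in annotated transcripts after the stop codon, allowing G-T pairs in the stem, and single-copy windows against all other GENCODE M21 transcripts on both strands. Proteins were compared by translating the annotated transcripts. Scaling factors came from edgeR 4.0.16 (TMM) and DESeq2 1.42.0 in R 4.3.3, and the rest from Python 3.11.15. The ratio and stem-loop code was tested on simulated data.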

Additional observations from a re-analysis of the deposited data

Results flagged for a closer look

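Rows of histone pseudogenes lie outside the 67 protein-coding genes, and 2 of them held counts above the 3 that a count of 0 allows. For Hist1h2aj, library 1 gave 0 counts and library 2 gave 4. For Hist3h2bb-ps they gave 2 and 10 (0.0855 and 0.243 CPM). Both are annotated as pseudogenes and named after clustered histone genes. Their sequences were not compared with those of the 67 genes, so the copy from which these reads came was not determined.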

How the results depend on the processing

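The number of counted genes was 42 at 1 or more counts in both libraries against 19 at 10 or more. The share of all protein-coding genes at 1 or more counts is not given here, so the 42 has no background beside it. The log2 ratio of the summed levels was 0.82 with TMM, 0.86 with DESeq2 size factors and 0.90 with GC adjustment (less the median ratio of genes of like GC content) over all members. In the same order it was 1.56, 1.61 and 1.70 for H1, 0.52, 0.57 and 0.58 for H2A, 1.18, 1.23 and 1.21 for H2B and -0.124, -0.0799 and -0.0809 for H4, and for H3 it was -0.43 with DESeq2 size factors and -0.41 with GC adjustment. Without its most abundant gene the log2 ratio by CPM was 0.26 for all members, 0.0437 for H1 and 0.28 for H2B. For H2A it was -0.0729, which turned its direction by CPM, though the 0.23 that TMM scaling adds is larger. The mean summed level was then 6.30 CPM for H1, 6.63 for H2A, 13.7 for H2B, 5.87 for H3 and 15.7 for H4. Without Hist1h1c and Hist1h2bc, an alternative added after seeing the data, the summed level was 73.5 CPM and its log2 ratio -0.0893, the opposite direction. With TMM scaling that ratio was 0.14, in the same direction as that of all members. With 10 counts summed over the libraries, 6 genes were over 2-fold higher in library 2 and 4 lower. At 10 or more counts in both libraries, 3 were higher and 0 lower with TMM, DESeq2 size factors or GC adjustment. The share over all genes at these settings is not given here, so these counts have no background beside them. The share of histone counts from spliced genes, 21.6%, became 82.6% for genes with a transcript of at least 1000 bases and 96.7% for those with 150 or more bases after the stop codon, a division added after seeing the data. The 10 most abundant members took 79.9% of histone counts and the 5 most abundant 62.7%. No paired analysis was possible because both libraries belong to 1 group. With 2 libraries, the value of either one alone always lies within 1 SD of their mean. For the uncounted genes, the limit set by depth was not told apart from reads that were not assigned.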
